A study of Mus musculus with 4 samples.

Results

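Amino acid transporter transcripts were examined in 4 RNA-seq libraries of hematopoietic stem cells (HSCs), which had been sorted from the bone marrow of mice. The genes were all rows whose symbol begins with Slc1a, Slc3a, Slc7a, Slc36a, Slc38a or Slc43a followed by a digit, 41 of the 23450 listed genes. One of them, Slc7a6os, is named for lying opposite Slc7a6 and encodes no carrier, which leaves 40 transporter genes in 6 families. Slc7a4 and Slc7a5 were not analysed here.

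The 2 libraries of long-term HSCs (LT-HSC 1 and 2) came from cells without CD48 or CD34 that carried CD150 and a high level of CD9, a tetraspanin. The 2 libraries of short-term HSCs (ST-HSC 1 and 2) came from cells without CD48 that carried CD150 and a low level of CD9, and no CD34 gate is stated for them. Both groups carry the labels of bone marrow and of 2000 cells per library. The sources used here give no strain, age, sex or pooling of animals, and do not say whether the replicates were separate animals. The p-values then reflect the spread of these 4 libraries alone, and that spread may be technical.

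Cells take up amino acids through carriers that differ in substrate and in driving force. Sodium-coupled carriers of the Slc1a and Slc38a families bring in glutamate, glutamine, serine and alanine, and Slc7a proteins exchange larger neutral and cationic amino acids or cystine. Many Slc7a proteins reach the cell surface only when bound to a heavy chain, Slc3a2 (CD98hc) or Slc3a1 (rBAT). Slc36a and some Slc38a proteins act at the lysosome, where amino acids are sensed by the growth kinase complex mTORC1. Adult HSCs are mostly out of cycle and make protein slowly, and they are known to be sensitive to the supply of amino acids such as valine.

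The libraries held between 13062848 and 16142666 reads, recovered from the deposited values as set out with the processing. Levels are given in CPM, the reads of a gene per fixed number of library reads. Levels of different genes are compared only in CPM per kb, that is per kilobase of the longest coding transcript. A floor of 3 reads equals 0.186 to 0.229 CPM, and it covers counting error only, because amplified reads are not independent molecules. The 8 HSC marker genes summed to 2793 and 3073 CPM in LT-HSC and to 2234 and 2493 CPM in ST-HSC. Of these, 5 lay above both ST-HSC libraries and 1 below. The 1 below was Cd34, at 134 and 201 CPM in LT-HSC against 324 and 430 CPM in ST-HSC. CD34 and CD9, whose genes are in this list, were themselves part of the sort gates. Of 5 proliferation marker genes, 4 lay below both ST-HSC libraries, and the list summed to 368 and 278 CPM in LT-HSC against 873 and 1310 CPM in ST-HSC. Of 20 tested markers of other blood and stromal cells, 11 lay below and 2 above both ST-HSC libraries. Over all 12569 genes tested, 17.5% lay below and 16.1% above. The megakaryocyte list summed to 95.7 and 79.4 CPM in LT-HSC, against 256 and 193 CPM in ST-HSC, and the erythroid list to 120 and 66.3 CPM against 177 and 140 CPM. In the megakaryocyte list Itga2b was at 2.45 and 5.01 CPM in LT-HSC against 152 and 105 CPM in ST-HSC. Pf4, Gp9 and Gp1bb lay below by far fewer CPM, and Ppbp overlapped. In the erythroid list Klf1, Hba-a1 and Aqp1 lay below both ST-HSC libraries and Epor above. The monocyte list summed to 201 and 164 CPM against 240 and 202 CPM, and the T and NK list, through Nkg7 alone, to 13.1 and 38.0 CPM against 64.3 and 97.2 CPM. In the monocyte list Cd68 lay below both ST-HSC libraries, Lyz2 lay above both, and Csf1r overlapped. Granulocyte, B cell, mast cell and stromal sums overlapped between groups. The defining markers Ctsg (granulocytes), Cd3e, Cd3d and Il7r (T cells), Fcer1a (mast cells) and Lepr (stroma) had no read in any library. What part dividing cells or these cell types had in the transporter values was not tested. In bulk libraries, fewer cells that express a gene cannot be told apart from less of its RNA per cell.

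Of the 40 transporter genes, 33 had a read in at least 1 library and 19 had one in all 4. The 7 without any read were Slc1a6, Slc1a7, Slc7a9, Slc7a12, Slc7a15, Slc36a3 and Slc38a4. A filter of at least 1 CPM in at least 2 libraries kept 25 transporter genes for the test, so 8 that were read were not tested. The filter is one that a gene read in a single group can pass.

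**Figure D1:**
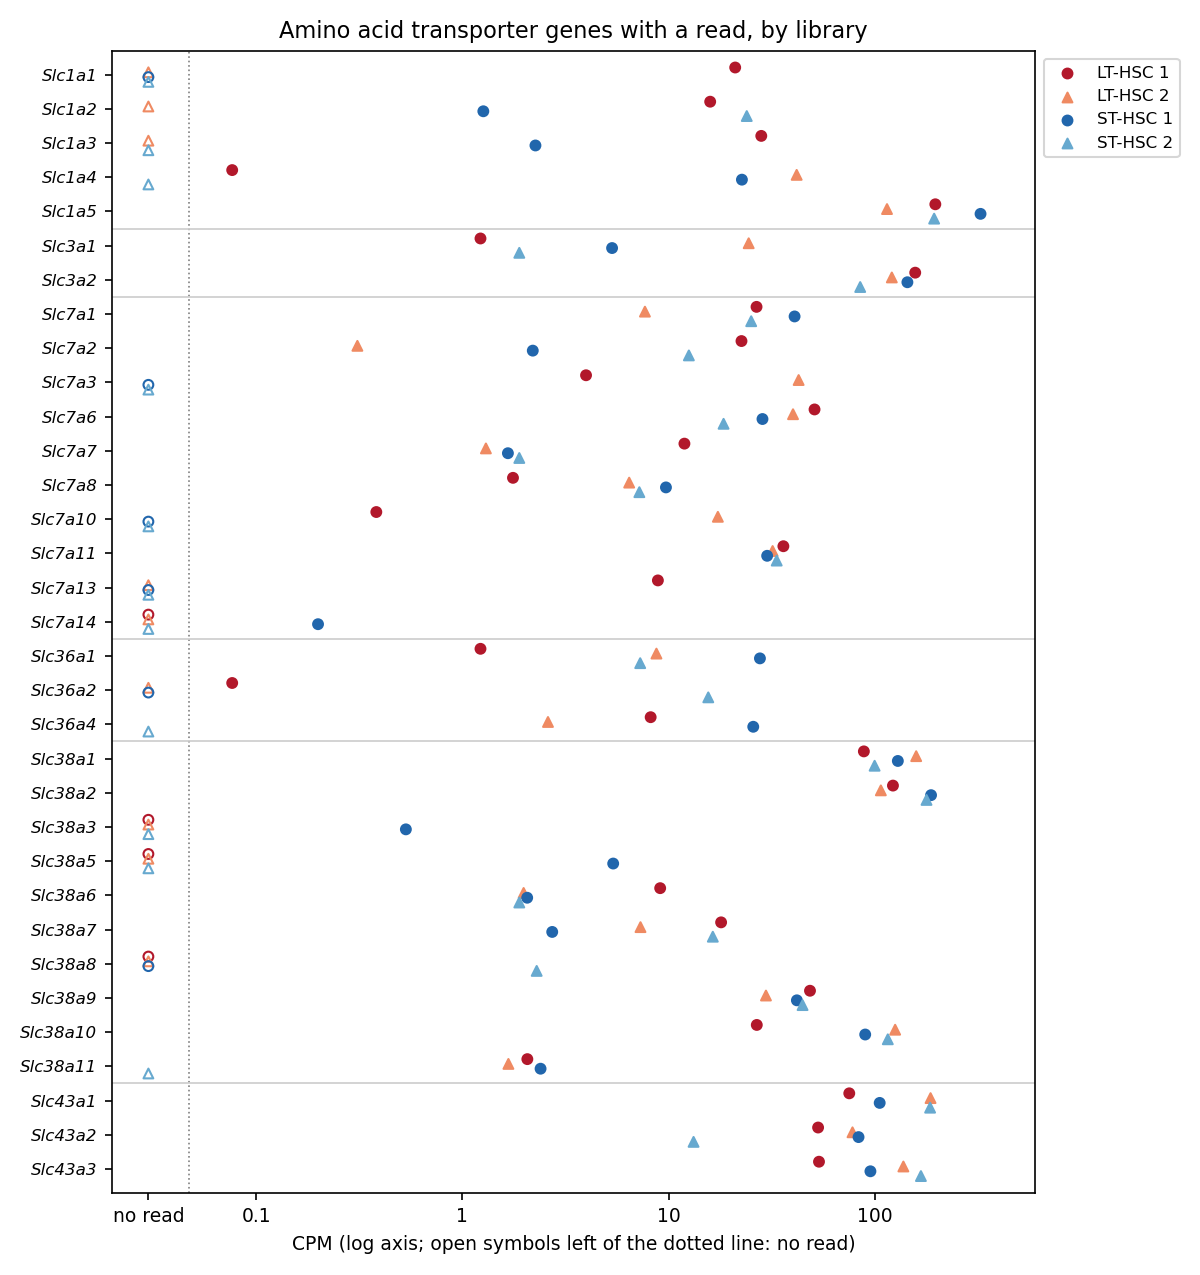
CPM of the 33 transporter genes with a read, on a log axis, with 1 symbol per library and grey lines between the families. Open symbols left of the dotted line mark libraries without a read; Slc7a11 holds its 4 symbols between 30.05 and 36.0 CPM, while Slc1a4 has 2 libraries above 20 CPM and 2 near or at no read.

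A handful of the 40 genes made up most of the analysed transporter transcripts in both cell types, and Slc1a5 led in both by group mean. Slc1a5 encodes ASCT2, the main sodium-coupled glutamine carrier of dividing cells. Its level was 71.1 and 41.5 CPM per kb in LT-HSC 1 and 2, and 118 and 70.2 CPM per kb in ST-HSC 1 and 2. It gave 17.5% of the summed level per kilobase of all 40 genes in LT-HSC and 26.1% in ST-HSC. In LT-HSC the next were Slc3a2 at 49.4 ± 9.08, Slc43a1 at 42.3 ± 25.4, Slc43a3 at 37.0 ± 23.0 and Slc38a2 at 24.6 ± 2.35 CPM per kb (SD, n = 2). In ST-HSC they were Slc43a3 at 50.8 ± 19.7, Slc43a1 at 47.1 ± 18.3, Slc3a2 at 40.7 ± 14.8 and Slc38a2 at 39.2 ± 1.40 CPM per kb (SD, n = 2). By transcript length the same 5 genes thus led both groups, with 65.2% of the summed level in LT-HSC and 75.5% in ST-HSC. Among them Slc3a2 is a heavy chain, and Slc43a3 carries purine nucleobases despite its family name. In ST-HSC both values of Slc1a5 lay above every value of the other 4 genes, and the values of those 4 overlapped from each to the next. In LT-HSC neighbours in the order overlapped throughout, although both values of Slc38a2 lay below both of Slc1a5 and of Slc3a2. In LT-HSC 2 Slc43a1 led with 60.3 CPM per kb and Slc1a5 was the fourth. With coding length in place of transcript length, Slc1a5 again led both group means, at 13.1% and 19.6%. Slc38a1 then entered the first 5 in both, in place of Slc43a3 in LT-HSC and of Slc3a2 in ST-HSC. By that length Slc1a5 did not lead in every library. Slc38a1 led in LT-HSC 2, where Slc1a5 was not among the first 5, and Slc38a2 led in ST-HSC 2 (15.9% against 15.7%). Over all 40 genes the summed level was 289 and 353 CPM per kb in LT-HSC and 378 and 342 CPM per kb in ST-HSC, so the groups overlapped.

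**Figure D2:**
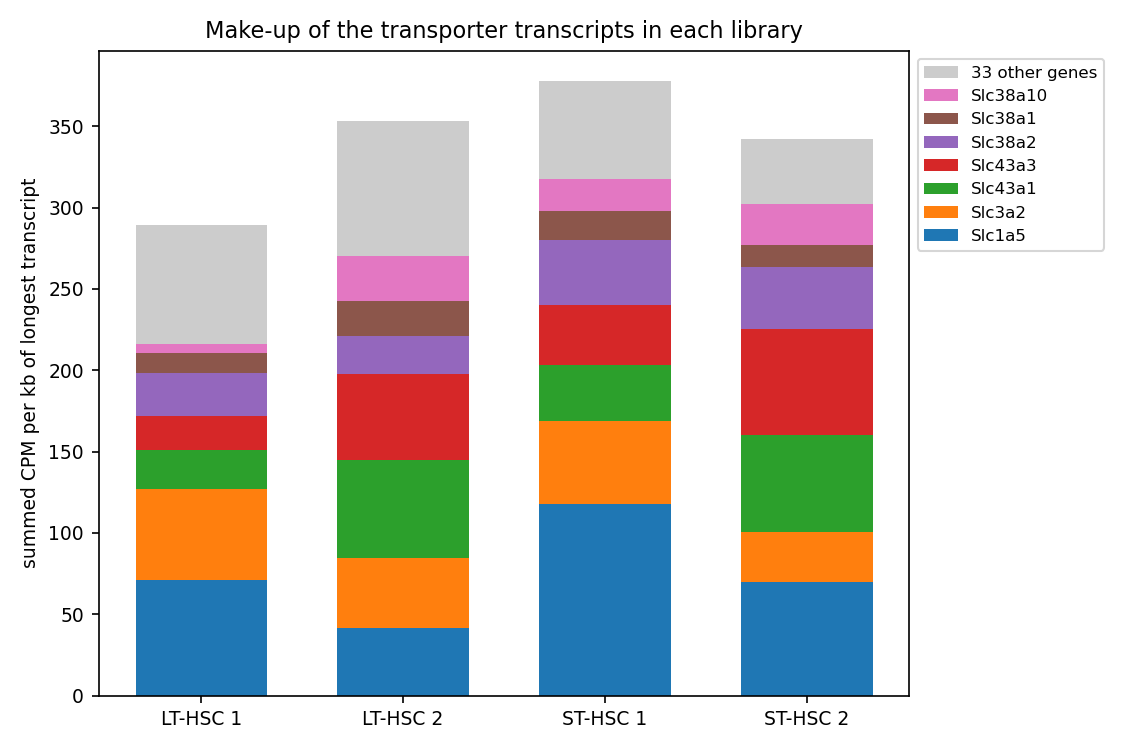
Summed CPM per kb of the longest transcript in each of the 4 libraries, as stacked bars from 0, with the 7 highest genes in colour and the other 33 in grey. Slc1a5, at the base, takes 24.6% of LT-HSC 1, 11.7% of LT-HSC 2, 31.2% of ST-HSC 1 and 20.5% of ST-HSC 2.

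The comparison asked whether transporter transcripts differ between CD9-high, CD34-negative cells and CD9-low cells. No transporter gene passed the test. By limma, 0 of 12569 tested genes had an adjusted p under 0.05 (0% of all), and 0 of the 25 transporter genes did. The smallest adjusted p among the 25 was 0.761, and the smallest among all genes 0.716. At an unadjusted p under 0.05, 1 transporter gene (Slc7a3) was higher in LT-HSC against 2.87% of all tested genes, and 0 were lower against 3.60%. Applied to the recovered reads, limma-voom gave 0 genes at the adjusted and 586 at the unadjusted threshold. For 2 of the 25 genes (8%) each LT-HSC library exceeded each ST-HSC library, against 16.1% of all tested genes. Another 2 (8%) lay below both, against 17.5%. The median log2 fold change of the 25 was 0.09, with 14 above and 11 below 0, and the median over all tested genes was -0.0098. The absolute difference between replicates had a median of 1.35 log2 units in LT-HSC and 0.75 in ST-HSC over the 25, against 0.69 and 0.56 over all tested genes. For 3 of the 25, or 12%, the difference between group means exceeded both replicate differences, against 21.8% of all tested genes. Fold changes below are values and not calls, and a p that misses the threshold does not show equal levels.

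**Figure D3:**
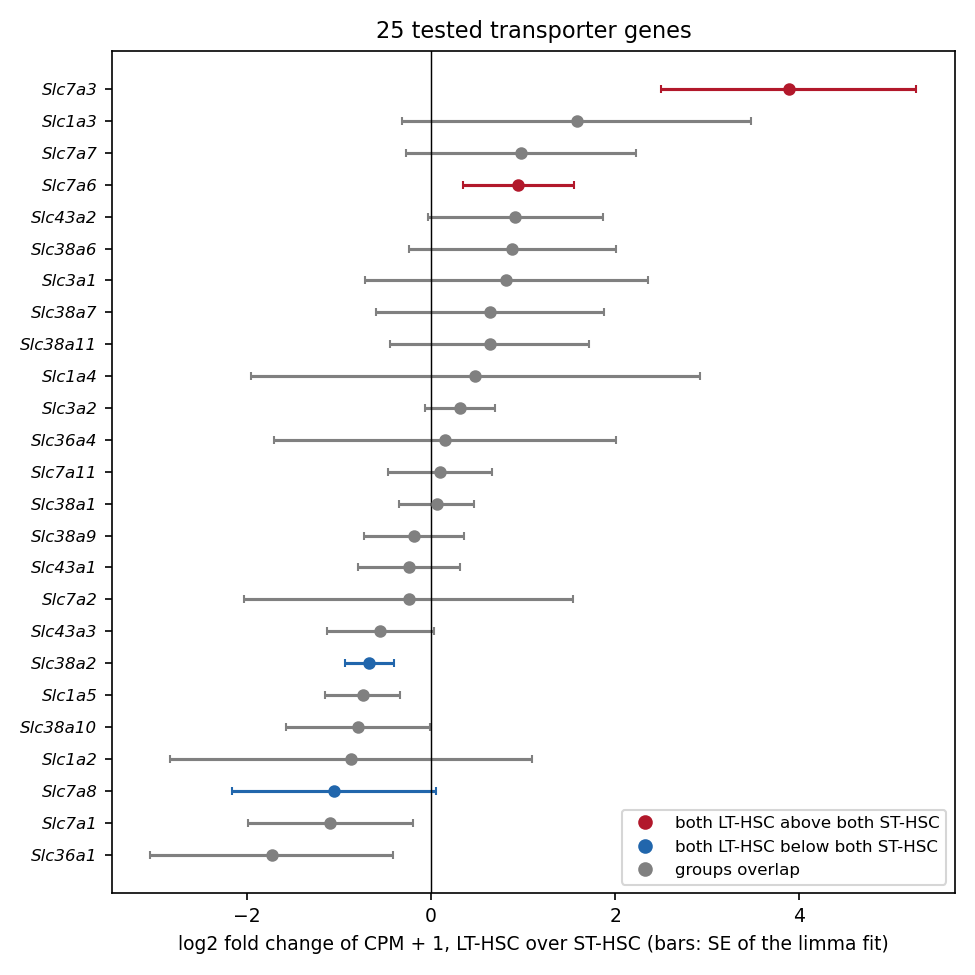
Log2 fold change of CPM + 1, LT-HSC over ST-HSC, for the 25 tested transporter genes, with bars of 1 SE from the limma fit. Slc7a3 and Slc7a6 (red) lie above both ST-HSC libraries and Slc38a2 and Slc7a8 (blue) below both, while the other 21 overlap and none passed the adjusted threshold.

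In the Slc1a family, 1 carrier held nearly the whole level and the glutamate carriers came and went between libraries. Slc1a5 stood at 197 and 115 CPM in LT-HSC 1 and 2, and at 326 and 194 CPM in ST-HSC 1 and 2. ST-HSC 2 and LT-HSC 1 nearly coincided, so the groups overlapped, with a log2 fold change of -0.74 ± 0.41 (SE) and a limma adjusted p of 0.829. The gene took between 79.6% and 97.1% of the family's level per kilobase in the 4 libraries. Slc1a4 (ASCT1), which carries alanine, serine and cysteine, was at 0.076 and 41.8 CPM in LT-HSC against 22.7 and 0 CPM in ST-HSC. Thus 1 library of each group held it and the other did not. Slc1a3 (GLAST), a glutamate carrier, was at 28.1 and 0 CPM in LT-HSC compared with 2.26 and 0 CPM in ST-HSC, and its log2 fold change was 1.58 ± 1.90 (SE). Slc1a2 (GLT-1), also a glutamate carrier, was at 15.9 and 0 CPM against 1.26 and 23.9 CPM. Slc1a1, the third glutamate carrier read, had 275 reads in LT-HSC 1 and none in the other 3 libraries. All 3 glutamate carriers were thus read in LT-HSC 1, and none of them in LT-HSC 2.

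Among the heavy chains, Slc3a2 was abundant in every library and Slc3a1 was scarce in most. Slc3a2 was at 157 and 121 CPM in LT-HSC, versus 144 and 84.9 CPM in ST-HSC, with a log2 fold change of 0.31 ± 0.38 (SE) and a limma adjusted p of 0.977. Only ST-HSC 2 stood below the other 3 libraries, and without it the log2 fold change was -0.06. Slc3a1, which pairs with the cystine and cationic carrier Slc7a9 in kidney and gut, was at 1.22 and 24.5 CPM in LT-HSC against 5.32 and 1.89 CPM in ST-HSC. Its partner Slc7a9 had no read in any library. Slc7a13, another light chain known to pair with Slc3a1, had 116 reads in LT-HSC 1 and none elsewhere, whereas Slc3a1 was highest in LT-HSC 2.

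The light chains that pair with Slc3a2 stood higher in LT-HSC as a sum, led by Slc7a6. The 5 analysed, Slc7a6, Slc7a7, Slc7a8, Slc7a10 and Slc7a11, summed to 23.4 and 25.2 CPM per kb in LT-HSC and to 13.97 and 11.1 CPM per kb in ST-HSC. The 2 groups did not overlap in this sum, which was formed after single values were known and has no test. Slc3a2 itself was 2.39 and 1.71 times this sum in LT-HSC and 3.66 and 2.71 times in ST-HSC, with Slc7a5, its LAT1 partner, left out. Slc7a6 (y+LAT2), which exchanges arginine for glutamine, was at 51.0 and 40.1 CPM in LT-HSC compared with 28.5 and 18.5 CPM in ST-HSC. Both LT-HSC libraries were above both ST-HSC libraries, with a log2 fold change of 0.95 ± 0.60 (SE), between 0.65 and 1.25 with 1 library left out, and a limma adjusted p of 0.866. Slc7a6os, the row next to it by name, was at 12.6 and 30.4 CPM in LT-HSC, versus 7.78 and 23.2 CPM in ST-HSC, and its groups overlapped. Slc7a7 (y+LAT1), which has the same exchange function, was at 11.9 and 1.30 CPM against 1.66 and 1.89 CPM, high in LT-HSC 1 alone. Slc7a8 (LAT2), a carrier of large neutral amino acids, was at 1.76 and 6.44 CPM in LT-HSC against 9.71 and 7.21 CPM in ST-HSC. It lay below both ST-HSC libraries, with a log2 fold change of -1.05 ± 1.11 (SE) and a limma adjusted p of 0.958. Slc7a10 (Asc-1), a carrier of small neutral amino acids, had 5 and 280 reads in LT-HSC and none in ST-HSC. Against the floor of 3 reads per library its mean was at least 44.1-fold higher in LT-HSC, but only at least 1.90-fold without LT-HSC 2. Both bounds cover counting error only and not the spread between replicates.

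Slc7a11 (xCT), which imports cystine for glutathione synthesis, was the steadiest of the tested transporter genes in this family. It was at 36.0 and 31.9 CPM in LT-HSC compared with 30.05 and 33.4 CPM in ST-HSC, and its log2 fold change was 0.09 ± 0.56 (SE), with a limma adjusted p of 1. The groups overlapped, and with 1 library left out the log2 fold change lay between 0.01 and 0.18. Slc7a11 is a known target of ATF4, the factor that cells induce when amino acids run short. ATF4 pairs with C/EBP proteins on elements with the core TGATGNAA, where N is any base. This core was searched on both strands in RefSeq promoters of build GRCm38.p6, from 250 bases before to 50 after each start. It occurred in 3.97% of all 32851 promoters. The table held 42 promoters of 31 of the 40 transporter genes, and 4 of these promoters, of Slc1a4, Slc7a7 and Slc7a11, held the core. The stretches from 150 bases before to 30 after the start are shown for Slc7a11, whose level hardly moved between libraries, and for Slc1a4, whose reads were confined to 1 library in each group apart from a single read. Capitals mark the core or its reverse complement TTNCATCA.
Slc7a11 (chr3:50443584-50443763, minus strand): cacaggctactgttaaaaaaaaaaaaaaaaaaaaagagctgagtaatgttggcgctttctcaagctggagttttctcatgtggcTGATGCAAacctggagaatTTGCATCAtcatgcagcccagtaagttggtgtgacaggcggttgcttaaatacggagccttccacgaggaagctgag
Slc1a4 (chr11:20332684-20332863, minus strand): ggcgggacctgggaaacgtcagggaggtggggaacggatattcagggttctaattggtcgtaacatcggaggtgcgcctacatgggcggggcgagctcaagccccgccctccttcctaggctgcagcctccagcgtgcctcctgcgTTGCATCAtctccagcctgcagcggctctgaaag
Slc7a11 held 2 matches, 1 in each orientation, and Slc1a4 held 1 that spans the start. A match is a description of these letters and not evidence of binding.

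The cationic carriers, which bring in arginine and lysine, included the transporter gene with the smallest unadjusted p. Slc7a3 (CAT3), best known from brain, stood at 3.98 CPM in LT-HSC 1 and at 42.7 CPM in LT-HSC 2, and had no read in either ST-HSC library. Set against the floor of 3 reads per library, its mean in LT-HSC was at least 116-fold higher. The bound was at least 19.8-fold higher without LT-HSC 2 and at least 213-fold higher without LT-HSC 1. These bounds cover counting error only and not the spread between replicates. The limma fit gave a log2 fold change of 3.88 ± 1.39 (SE), an unadjusted p of 0.0387 and an adjusted p of 0.761, and the adjusted p ranged from 0.578 to 1 over the alternatives. Slc7a3 passed the filter through LT-HSC alone, the only group in which it was read. It had an unadjusted p under 0.05 in 6 of 13 alternatives. The limma fit missed it with no filter (0.051), a mean of at least 10 CPM (0.142) and log2(CPM + 4) (0.0676), and limma-voom missed it too (0.0799). The other misses came with LT-HSC 2, ST-HSC 1 or ST-HSC 2 left out. With 1 library left out the log2 fold change lay between 2.315 and 5.45. Slc7a1 (CAT1), the widely expressed arginine carrier, was at 26.7 and 7.68 CPM in LT-HSC, versus 40.8 and 25.1 CPM in ST-HSC. Its groups overlapped, with a log2 fold change of -1.09 ± 0.90 (SE) and a limma adjusted p of 0.910. Slc7a2 (CAT2), known from liver and activated macrophages, was at 22.6 and 0.309 CPM in LT-HSC against 2.19 and 12.5 CPM in ST-HSC, a wide spread within both groups. Slc7a14, an intracellular relative, had 3 reads in ST-HSC 1 and none elsewhere. Summed, the 4 analysed cationic carriers stood at 8.02 and 16.6 CPM per kb in LT-HSC and at 5.99 and 5.09 CPM per kb in ST-HSC. The 13 analysed Slc7a genes, without Slc7a4 and Slc7a5, summed to 35.5 and 41.8 CPM per kb in LT-HSC. In ST-HSC they summed to 20.0 and 16.2 CPM per kb. Without Slc7a3 and Slc7a10 these sums were 33.9 and 17.4 against 20.0 and 16.2 CPM per kb, and the groups overlapped.

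The proton-coupled Slc36a carriers were the lowest family in both cell types and lower in LT-HSC as a sum, through different members in each library. The family summed to 1.52 and 2.06 CPM per kb in LT-HSC and to 9.20 and 7.79 CPM per kb in ST-HSC. Slc36a1 (PAT1), which exports small neutral amino acids from lysosomes, was at 1.22 and 8.73 CPM in LT-HSC compared with 27.7 and 7.28 CPM in ST-HSC. Only ST-HSC 1 stood above LT-HSC 2, and the log2 fold change was -1.73 ± 1.32 (SE), or -0.66 without LT-HSC 1 and -0.83 without ST-HSC 1, with a limma adjusted p of 0.895. Slc36a2 (PAT2), a relative with a like substrate range, had 231 reads in ST-HSC 2, 1 read in LT-HSC 1 and none in the other 2 libraries. Slc36a4, a carrier of proline and tryptophan, was at 8.18 and 2.60 CPM in LT-HSC, versus 25.7 and 0 CPM in ST-HSC. The ST-HSC sum thus came from Slc36a1 and Slc36a4 in ST-HSC 1 and mostly from Slc36a2 in ST-HSC 2.

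**Figure D4:**
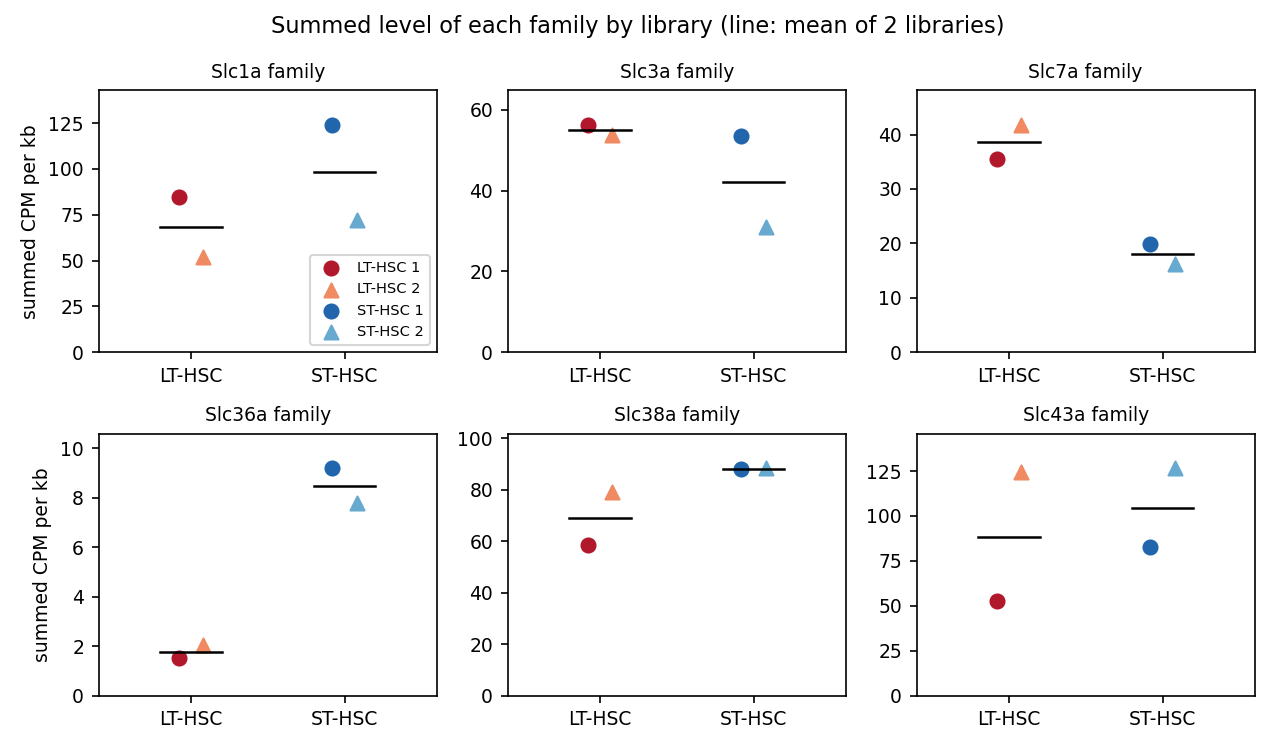
Summed CPM per kb of each of the 6 families, with 1 symbol per library, lines at the group means and axes that start at 0 and differ in scale. The Slc7a panel leaves out Slc7a4 and Slc7a5. The Slc7a sums are higher and the Slc36a and Slc38a sums lower in both LT-HSC libraries, the Slc3a sums of LT-HSC 2 (53.7) and ST-HSC 1 (53.5) nearly coincide, and the Slc1a and Slc43a groups overlap.

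In the Slc38a family of sodium-coupled neutral carriers, Slc38a2 was lower in both LT-HSC libraries. Slc38a2 (SNAT2), a system A carrier that is induced when amino acids are scarce, was at 122 and 107 CPM in LT-HSC against 187 and 178 CPM in ST-HSC. Replicates lay close together and the groups did not overlap. The log2 fold change was -0.67 ± 0.26 (SE), between -0.77 and -0.57 with 1 library left out, with an unadjusted p of 0.051 and a limma adjusted p of 0.767. At an unadjusted p under 0.05 it passed in 5 of 13 alternatives, and its adjusted p ranged from 0.556 to 1. Slc38a1 (SNAT1), the other widely expressed system A carrier, was at 88.5 and 159 CPM in LT-HSC compared with 129 and 99.8 CPM in ST-HSC, and the groups overlapped. The family summed to 58.7 and 79.3 CPM per kb in LT-HSC and to 88.0 and 88.5 CPM per kb in ST-HSC. Slc38a10, a less well characterised member, was at 26.8 and 125 CPM in LT-HSC, versus 89.8 and 116 CPM in ST-HSC, with LT-HSC 1 standing below the other 3 libraries. The system N carriers, which move glutamine and histidine, were near or at 0, with 8 reads of Slc38a3 and 81 reads of Slc38a5 in ST-HSC 1 and none elsewhere.

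The lysosomal Slc38a members differed little or without order between the groups. Slc38a9, the lysosomal arginine sensor of mTORC1, was at 48.5 and 29.6 CPM in LT-HSC against 41.9 and 44.6 CPM in ST-HSC, and its log2 fold change was -0.18 ± 0.54 (SE), with a limma adjusted p of 1. Slc38a7, which exports glutamine from lysosomes, was at 18.0 and 7.30 CPM in LT-HSC compared with 2.73 and 16.4 CPM in ST-HSC. Both genes had overlapping groups. Slc38a6 was at 9.10 CPM in LT-HSC 1 and between 1.89 and 2.06 CPM in the other 3 libraries. Slc38a11 was between 1.67 and 2.39 CPM in 3 libraries and unread in ST-HSC 2, and Slc38a8 had 34 reads in ST-HSC 2 only.

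The Slc43a family was as abundant as Slc1a, and Slc43a1 and Slc43a3 varied more between replicates than between groups. Slc43a1 (LAT3), which carries leucine and other branched-chain amino acids without sodium, was at 75.2 and 186 CPM in LT-HSC, versus 106 and 185 CPM in ST-HSC. Slc43a3, which despite its family name carries purine nucleobases, was at 53.6 and 138 CPM in LT-HSC against 95.2 and 167 CPM in ST-HSC. In both groups the library with the higher Slc43a1 also had the higher Slc43a3. Their log2 fold changes were -0.24 ± 0.55 and -0.55 ± 0.58 (SE), and both turned positive without LT-HSC 1 (0.41 and 0.12). Slc43a2 (LAT4), a carrier of the same amino acids as LAT3, was at 53.1 and 77.9 CPM in LT-HSC compared with 83.4 and 13.2 CPM in ST-HSC, where ST-HSC 2 stood alone. The groups overlapped in all 3 genes, with limma adjusted p of 1, 0.958 and 0.955 for Slc43a1, Slc43a3 and Slc43a2.

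Several carriers were read strongly in 1 library and not in its replicate. At least 10 CPM in 1 library and at most 3 reads in the other of the same group was seen for 6 of the 25 transporter genes that reached 10 CPM anywhere (24%), against 9.18% of all genes that did. These were Slc1a1, Slc1a2, Slc1a3, Slc1a4, Slc36a2 and Slc36a4. All 6 had a highest library under 50 CPM. Among transporter genes with a highest library between 10 and 50 CPM the share was 6 of 16 (37.5%), against 24.2% of all genes in that range, a range set after the values were seen. Of the 5 Slc1a genes with a read, 4 were of this kind and only Slc1a5 was read in all 4 libraries.

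Other genes of amino acid supply were read from lists that do not overlap the 6 families, and no member of them passed the adjusted threshold in limma. Of 28 listed amino acid carriers outside the 6 families, 19 were tested, with 1 higher and 1 lower at an unadjusted p under 0.05, against 2.87% and 3.60% of all tested genes. The lower was Slc16a10 (TAT1), which carries aromatic amino acids, with no read in LT-HSC and 3.79 and 18.1 CPM in ST-HSC. Of 24 tested genes of amino acid sensing at the lysosome, 6 lay above (16.1% of all tested genes did) and 3 below both ST-HSC libraries (17.5%). In that list 1 gene was higher and 0 lower at an unadjusted p under 0.05 in limma, against 2.87% and 3.60% of all tested genes. The higher was Wdr59 of the GATOR2 complex, at 17.7 and 23.8 CPM in LT-HSC, versus 4.12 and 0.472 CPM in ST-HSC.

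Among 19 tested genes of the amino acid response and ATF4 targets, 7 lay below both ST-HSC libraries, as did 17.5% of all tested genes, and 1 lay above, against 16.1%. The 7 were Atf3, Atf5, Psat1, Phgdh, Psph, Mthfd2 and Vldlr. Psat1, an enzyme of serine synthesis, was at 156 and 109 CPM in LT-HSC against 233 and 398 CPM in ST-HSC, with a log2 fold change of -1.22 ± 0.37 (SE), an unadjusted p of 0.0217 and a limma adjusted p of 0.717. Phgdh and Psph, which act in the same pathway, had log2 fold changes of -0.69 and -0.75 and unadjusted p of 0.0992 and 0.129. Atf4 itself was the 1 gene above, at 289 and 239 CPM in LT-HSC and 191 and 238 CPM in ST-HSC. The list's median log2 fold change was -0.02, near that of all genes. Cytosolic aminoacyl-tRNA synthetases load amino acids onto tRNA. Of 20 tested, 1 was higher and 0 lower at an unadjusted p under 0.05 in limma, against 2.87% and 3.60% of all tested genes. The higher was Iars, for isoleucine, at 122 and 128 CPM in LT-HSC and 57.1 and 53.0 CPM in ST-HSC. The list's median was -0.0093, and 2 of its genes lay above and 1 below both ST-HSC libraries, against 16.1% and 17.5% of all. Of 11 tested glutamine and glutathione enzymes, 0 had an unadjusted p under 0.05 in limma, against 2.87% higher and 3.60% lower among all tested genes. In that list 3 lay above and 3 below both ST-HSC libraries, against 16.1% and 17.5% of all. Glul, which makes glutamine, was at 198 and 221 CPM in LT-HSC against 170 and 133 CPM in ST-HSC, whereas Got1, an aspartate aminotransferase, was at 3.59 and 21.6 CPM against 74.5 and 24.6 CPM.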

How the data were processed

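RNA of 2000 sorted cells per library was made into cDNA with the SMARTer kit for Illumina sequencing, per the labels' protocols. TopHat and the mm9 build are named in the submitters' processing notes. The sources used here do not give the read counter, annotation, filters or treatment of shared reads. The authors deposited 1 log2 value per gene and library. Their low values step as log2 of reads plus 1, scaled by the library total, so reads and CPM were recovered from them. Each library held 12812 to 13135 values of up to 100 reads, those of genes without a read included, and 100% were whole numbers to within 0.1. The scale was set from the lowest value of each library, so genes at that value were whole by construction. If genes without a read had instead been raised to 1 read, each read gene would hold 1 read more. Recovered reads fell short of the library totals by 0.0827% to 0.111%.

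The 12569 genes that reached 1 CPM in 2 or more libraries were tested as log2(CPM + 1) with limma 3.58.1 (R 4.3.3, trend and robust shrinkage, statmod 1.5.0), 2-sided. Benjamini-Hochberg adjustment covered all tested genes, and the threshold was 0.05. Such fold changes understate the change of low genes. Positive means higher in LT-HSC. The test had been planned for counts with another tool, and the log2 form took the planned test for normalized values. It was tested on simulated reads. Transcript and coding lengths are the longest of GENCODE M21 (GRCm38), found for all 40 transporter genes. No gene coordinates are printed besides the RefSeq promoters, since the files use mm9. Replicate numbers are shared by the groups, but nothing says that they pair libraries. Genes named in full are the leader of each family and of each group, those with an unadjusted p under 0.05 or an absolute log2 fold change of at least 1, heavy chain partners and lysosomal members. Others are described after their values were seen. The members, lists and tests were chosen with earlier results of these data known. The alternatives were other added values, filters, scaling factors, limma-voom, no robust shrinkage, a replicate block, coding length and leaving out each library. Values of some listed genes outside the transporter families are not reported here.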

Additional observations from a re-analysis of the deposited data

How the results depend on the processing

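No gene passed the adjusted threshold under any of the 13 alternatives, where the smallest adjusted p of any gene lay between 0.552 and 1. The number of genes at an unadjusted p under 0.05, 814 with all libraries, was 394 to 1099 with 1 library left out, with 517 without ST-HSC 1 and the fewest without ST-HSC 2. The split was 361 higher and 453 lower, against 248 and 609 when LT-HSC 1 was left out, and 277 and 822 when LT-HSC 2 was. It was 366 and 151 for ST-HSC 1 left out, and 245 and 149 for ST-HSC 2. With the replicate number as a block (a replicate block) it was 876 genes, and the median of the 25 transporter genes stayed at 0.09. With the block 2 transporter genes had an unadjusted p under 0.05 in limma, Slc7a3 and Slc1a5. For Slc1a5 it was 0.032 (adjusted p 0.704), against 0.129 without the block. Deviations of LT-HSC 1 and ST-HSC 1 from their group means correlated at 0.05 over 12569 genes. With 2 libraries per group this is a single correlation, and it cannot decide whether the libraries were paired. The median log2 fold change of the transporter genes was -0.12 to 0.18 with 1 library left out and -0.18 with a mean of at least 10 CPM.

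Of the 26 tested rows, Slc7a6os included, 17 changed direction when 1 library was left out and 9 did not under any alternative. Away from left-out libraries, Slc7a2 turned to 0.080 and Slc36a4 to -0.28 with log2(CPM + 4). With 1 library left out the log2 fold change ranged as follows. It was -2.91 to 1.17 for Slc1a2, -0.85 to 4.01 for Slc1a3, -2.18 to 3.14 for Slc1a4, -0.94 to 2.58 for Slc3a1 and -0.062 to 0.69 for Slc3a2. It was -2.33 to 1.84 for Slc7a2, -0.22 to 1.24 for Slc7a6os, -0.27 to 2.22 for Slc7a7 and -2.22 to 2.52 for Slc36a4. It was -0.36 to 0.48 for Slc38a1, -0.47 to 1.75 for Slc38a7, -0.53 to 0.16 for Slc38a9, -1.89 to 0.30 for Slc38a10 and -0.25 to 1.52 for Slc38a11. For Slc43a1, Slc43a2 and Slc43a3 it was -0.89 to 0.41, -0.37 to 2.20 and -1.22 to 0.12. Beyond the left-out libraries themselves, the cause was not tested. With coding length and with each library left out, the alternatives run for the leading carrier, Slc1a5 had the highest level per kilobase in ST-HSC, and in LT-HSC except without LT-HSC 1, where Slc43a1 led. By coding length the Slc7a sum stayed higher and the Slc36a and Slc38a sums lower in LT-HSC, while the Slc3a groups overlapped. Depth limits what can be read from genes near the floor of 3 reads, 0.186 to 0.229 CPM.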
